A study of Mus musculus with 1 sample.

Results

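MHC class II genes and immunoglobulin constant genes, which serve antigen presentation and antibody synthesis, were followed through a blood T cell library, to learn which barcodes carried their RNA and how much of it lay outside B cells. The 5 MHC class II genes were Cd74, H2-Aa, H2-Ab1, H2-Eb1 and Ciita, and the 5 immunoglobulin constant genes were Ighm, Ighd, Igkc, Iglc2 and Iglc3. They were listed by name, and all 10 were found among the 32285 genes of the matrix. The library came from 1 mouse of an autochthonous small cell lung cancer (SCLC) model on a C57BL/6 background, in which Rb1 and Trp53 are conditionally deleted after Adeno-Cre virus is given into the trachea. This mouse was in the vehicle group and received PBS every 3 days. From 150 µl of its blood, red cells were lysed and T cells were enriched by depleting other cells with a Pan T cell kit, and TCR and gene expression libraries were read from the same droplets. Whether the blood cells carried the deletion was not measured here. The combination-treated mouse was not analysed here. A single mouse gives no error between replicates, so no test was made. All intervals are exact 95% intervals that cover counting error only.

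MHC class II molecules present peptides from endocytosed proteins to CD4 T cells. They are made by B cells, dendritic cells and some monocytes, whereas mouse T cells, unlike activated human T cells, make little or none. Immunoglobulin constant genes encode the part of an antibody that sets its class, and B cells join them to a rearranged variable gene. In circulating naive B cells the IgM and IgD heavy chains are spliced from the same primary transcript, and each B cell normally keeps either a kappa or a lambda light chain.

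A UMI marks 1 captured RNA molecule, and 1600 of the 300213 barcodes passed the limit on UMIs for a called barcode, the shallowest of them with 1334. Of these, 88 held Cd79a, a subunit of the B cell receptor complex, and no Cd3e. A further 1203 held Cd3e, a subunit of the T cell receptor complex, and no Cd79a. Lyz2, which encodes the lysozyme of myeloid cells, reached 5 UMIs in 22 barcodes, 1 of which was also among the Cd3e barcodes. Both Cd79a and Cd3e were found in 18 barcodes, and 270 fell in no group. The 20532 barcodes with 10 to 50 UMIs served as a measure of free RNA. Their pooled depth was 833730 UMIs, against 350016 in the Cd79a, 6643492 in the Cd3e and 110276 in the Lyz2 barcodes, with median depths of 3657, 4446 and 4004.5 UMIs per called barcode. Levels are UMIs pooled over a group per 10000 UMIs of that group.

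The group names held up for most Cd79a and Cd3e barcodes against marker genes that the rule had not used, with single exceptions, and less well for Lyz2. All 10 B cell markers (Cd79b, Ms4a1, Pax5 and others) were found in the Cd79a barcodes, at a summed level of 34.8 to 242 per 10000 over the single barcodes. In the Cd3e barcodes the same list had a median of 0, and Fcmr, for example, had no UMI. T cell markers were found at 32.1 per 10000 in the Cd3e and at 0.828 in the Cd79a barcodes. Of the 88 Cd79a barcodes, 15 held T cell markers, at up to 18.6 per 10000. NK cell markers (Ncr1, Eomes and others) gave 61 UMIs in the Cd79a barcodes, all in 1 barcode. A productive TCR clonotype was present in 914 of the 1203 Cd3e barcodes (76.0%) and in none of the 88 Cd79a barcodes. The Lyz2 barcodes were not of 1 kind, since 13 of the 22 held the neutrophil genes S100a8 or S100a9, and 12 held Csf1r, the receptor that marks monocytes and macrophages. Of 6 plasma cell markers 4 were found in the Cd79a barcodes, with 110 UMIs in 49 of the 88 (3.14 per 10000, against 0.363 in the Cd3e barcodes and 0.288 in free RNA), while Jchain and Tnfrsf17 had none. The labelled cell type, T lymphocytes, thus described most of the called barcodes but not the 88 with Cd79a.

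The genes lie at several loci, given here in RefSeq coordinates of GRCm38.p6. The class II genes H2-Ab1 (chr17:34263227-34269418), H2-Aa (chr17:34282744-34287823) and H2-Eb1 (chr17:34305867-34316674) are neighbours in the MHC. Cd74, the invariant chain, is on chr18:60803849-60812652, and Ciita, the class II transactivator, is on chr16:10480014-10531064. The heavy chain constant genes Ighd (chr12:113407535-113416324) and Ighm (chr12:113418826-113422730) lie side by side. The kappa constant gene Igkc is on chr6:70726435-70726754. The lambda constant genes are Iglc3 (chr16:19065365-19065681) and Iglc2 (chr16:19198536-19198852). Ciita and the other class II genes are annotated as protein coding, and the 5 immunoglobulin genes as constant regions.

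All 10 members stood at least 4 times higher in the Cd79a than in the Cd3e barcodes. This was true of 463 of the 10654 genes with at least 20 UMIs in both groups together, or 4.35%. Of the 10, Ciita, H2-Aa, H2-Ab1, H2-Eb1, Iglc2 and Iglc3 had 1 to 9 UMIs in the Cd3e barcodes and were tested only through the Cd79a barcodes, so that the filter itself fixed their place and nothing is read from their number. Ighm, Ighd, Igkc and Cd74 had at least 20 UMIs in the Cd3e barcodes alone. The order of the members in that ranking of genes ran from Iglc2 at place 3 to Ighm at place 255. H2-Aa was at place 5, Iglc3 at 8, H2-Eb1 at 10, H2-Ab1 at 11 and Cd74 at 12, while Ciita, Ighd and Igkc were at 96, 120 and 132. In this ranking a Cd3e count of 0 is set to 3 UMIs, while counts of 1 or 2 are left. That raises Iglc2 and Iglc3 above genes at 0, such as Fcmr at place 16 with 213 against 0 UMIs. The places are thus a description, and nothing is read from them. Among the genes outside the lists with the highest ratios were the B cell genes Ms4a1, Ly86, Ly6d and Fcmr, of which Ms4a1 reached 3160 from 333 against 2 UMIs.

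**Figure D1:**
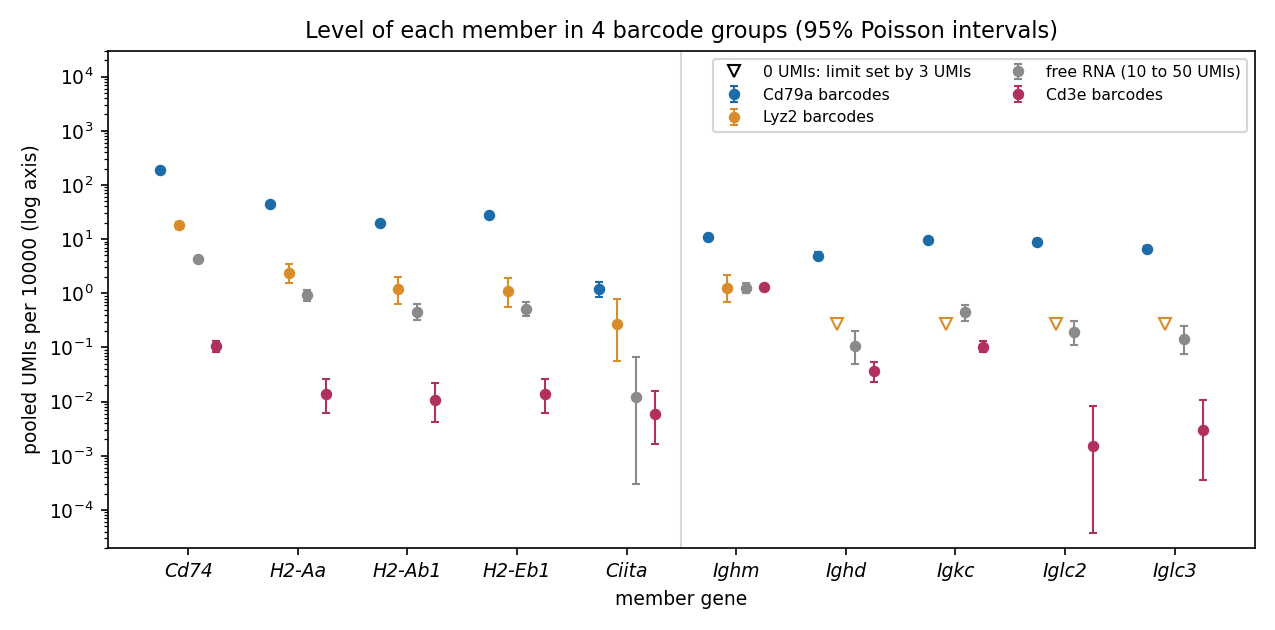
Pooled UMIs per 10000 (log axis) of each member in the Cd79a, Lyz2 and Cd3e barcodes and in free RNA, with 95% Poisson intervals; open triangles mark groups with 0 UMIs at the limit that 3 UMIs would set. Every member is highest in the Cd79a barcodes, and Ighm lies at 1.26 to 1.29 per 10000 in each of the other 3 groups.

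Cd74 encodes the invariant chain, which guides class II molecules to endosomes and blocks their groove until peptide is loaded. In the Cd79a barcodes it gave 6660 UMIs, or 190 per 10000 (186 to 195), and every one of the 88 barcodes held it, from 1 UMI to 191. The Cd3e barcodes held 70 Cd74 UMIs in all, or 0.105 per 10000 (0.0821 to 0.133). Of the 55 Cd3e barcodes with Cd74, 46 had a single UMI. The ratio between the 2 groups was 1806 (1427 to 2319). After each barcode was thinned to 2500 UMIs, Cd74 was found in 64 of 64 Cd79a barcodes and in 35 of 1037 Cd3e barcodes (3.38%), with 24 and 166 shallower barcodes left out.

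The α and β chains of the class II molecules, which form the peptide groove, followed the same order. H2-Aa, the α chain of I-A, gave 1525 UMIs in the Cd79a barcodes and 9 in the Cd3e barcodes, a ratio of 3216 (1690 to 7047). Its partner H2-Ab1, the β chain of I-A, gave 697 and 7 UMIs, a ratio of 1890 (912 to 4718). For H2-Eb1, the β chain of I-E, the counts were 982 and 9 UMIs and the ratio 2071 (1086 to 4543). The α chain of I-E, H2-Ea, is defective in C57BL/6 mice and had no row in the matrix. The intervals of the 3 ratios overlapped. All of Cd74, H2-Aa, H2-Ab1 and H2-Eb1 were found in 79 of the 88 Cd79a barcodes, and 3 barcodes had no H2 member.

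Ciita, the transactivator on which class II transcription depends, was detected far less often. It gave 42 UMIs in 27 of the 88 Cd79a barcodes, or 1.20 per 10000 (0.865 to 1.62), and 4 UMIs in 4 of the 1203 Cd3e barcodes. The ratio was 199 (72.3 to 765). With 1 UMI in free RNA, its level there could not be told from that of the Cd3e barcodes, at a Cd3e to free RNA ratio of 0.502 (0.0497 to 24.7).

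Cd74 made up most of the class II UMIs in each group. Its share was 67.2% in the Cd79a barcodes (66.3% to 68.2%), 68.8% in free RNA (64.6% to 72.8%) and 70.7% in the Cd3e barcodes (60.7% to 79.4%). In the Lyz2 barcodes it was 78.6% (73.0% to 83.5%), above the interval of the Cd79a barcodes. H2-Aa held 15.4% of the class II UMIs in the Cd79a barcodes, 15.1% in free RNA and 10.3% in the Lyz2 barcodes. H2-Eb1 held 9.91% (9.33% to 10.5%) in the Cd79a and 4.76% (2.48% to 8.17%) in the Lyz2 barcodes, and these intervals do not overlap. However, 239 of the 252 class II UMIs of the Lyz2 barcodes lay in 2 barcodes. The Lyz2 shares are thus mainly those of 2 barcodes, and their intervals do not cover the spread between barcodes. Ciita held 0.424% (0.306% to 0.573%) in the Cd79a and 4.04% (1.11% to 10.0%) in the Cd3e barcodes, again without overlap. These shares are of UMIs and were not corrected for transcript length.

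Among single Cd79a barcodes, the class II level spread from 3.40 to 577.5 per 10000, with a median of 299.9. Levels of Cd74 and the H2 genes were correlated over the 88 barcodes. The Pearson r of H2-Aa was 0.752 with Cd74, 0.750 with H2-Ab1 and 0.752 with H2-Eb1. The other pairs were lower, at 0.572 for Cd74 and H2-Ab1, 0.670 for Cd74 and H2-Eb1 and 0.631 for H2-Ab1 and H2-Eb1. Cd74 and Ighm, counted in the same barcodes, had an r of −0.00547, while Cd74 and Igkc had one of 0.417. Among barcodes with an ordinary ribosomal share, described further on, the r of Cd74 with H2-Aa was 0.553 over 66 barcodes. In the same 66 the r of H2-Aa was 0.766 with H2-Ab1 and 0.767 with H2-Eb1. That of Cd74 was 0.618 with H2-Ab1, 0.498 with H2-Eb1, 0.133 with Ighm and 0.123 with Igkc. H2-Ab1 and H2-Eb1 had an r of 0.637. Over all 1600 called barcodes and 7962 genes, those outside the list whose level was most like the summed class II level were Cd79a (r = 0.923), Ly6d (0.878), Cd79b (0.873), Ebf1 (0.872) and H2-DMb2 (0.858). All these barcodes share 1 library, so these values describe the barcodes and carry no p-value.

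Other genes of the class II pathway were counted from a list of 23, of which 20 were in the matrix and all 20 were tested. In the Cd79a against the Cd3e barcodes 11 were at least 4 times higher, 0 were at least 4 times lower and 9 lay between, with a median ratio of 6.27 beside 1.05 over all genes. H2-DMb1, H2-DMb2, H2-Eb2, March1 and Cd83, with 0 to 16 UMIs in the Cd3e barcodes, were tested only through the Cd79a barcodes, so the count and median describe the list and support nothing. H2-DMb2, a chain of the DM molecule that exchanges the invariant chain fragment for peptide, gave 268 UMIs against 6, a ratio of 848 (384 to 2331). H2-DMa, its partner, was found at 3.23 per 10000 in the Cd79a and 0.370 in the Cd3e barcodes, a ratio of 8.72 (6.91 to 10.9). The chains of DO, which restrains DM, were 16.8 times (12.0 to 23.5) higher for H2-Oa and 24.2 times (19.1 to 30.6) for H2-Ob. H2-Eb2 gave 36 UMIs in the Cd79a and 0 in the Cd3e barcodes, at least 228-fold higher when 3 UMIs are set for the Cd3e group. March1, a ubiquitin ligase that removes class II molecules from the surface, had a ratio of 324 (196 to 575), and Cd83, which opposes it, one of 285 (106 to 1079).

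The transcription factors of the class II promoter differed from their targets. Rfxap, Rfxank, Nfya, Nfyb, Nfyc and Creb1, which assemble on the conserved promoter boxes and recruit the product of Ciita, had ratios of 0.887 to 1.58 between the Cd79a and the Cd3e barcodes, and each interval included 1. Rfx5, the DNA binding subunit of the RFX complex, had a ratio of 3.45 (1.40 to 7.41) from 8 against 44 UMIs. Creb1, for example, gave 1.09 per 10000 in the Cd79a and 1.22 in the Cd3e barcodes. Of the proteases and reductases that prepare peptides, Ifi30 stood 21.0 times (16.6 to 26.6) higher and Ctss 3.10 times (2.61 to 3.67).

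The promoters of the class II genes were read to show the boxes on which these factors assemble. RefSeq promoters of GRCm38.p6, from 250 bases before to 50 after the start of a gene, were at hand for 10 of the 13 genes looked up. None was listed for Cd74, H2-Ab1 or Ciita, so these were not searched. The letters AGNAAC, from the X box, followed on the same strand after 10 to 40 bases by ATTGG, from the Y box, were searched on both strands. This pair was found in 547 of all 32851 promoters (1.67%) and in 5 of the 11 promoters of the 10 genes. AGNAAC alone was in 48.1% and ATTGG alone in 37.4% of all promoters. The 5 stretches are printed 5′ to 3′ on the plus strand of chromosome 17, with the matched letters in capitals, at chr17:34305763-34305824 for H2-Eb1, chr17:34153084-34153146 for H2-DMb1, chr17:34092290-34092352 for H2-Oa, chr17:34238805-34238864 for H2-Ob and chr17:34325530-34325591 for H2-Eb2.
H2-Eb1: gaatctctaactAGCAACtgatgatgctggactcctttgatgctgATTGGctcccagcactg
H2-DMb1: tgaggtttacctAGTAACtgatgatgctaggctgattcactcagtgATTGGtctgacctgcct
H2-Oa: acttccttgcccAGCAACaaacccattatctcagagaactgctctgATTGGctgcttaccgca
H2-Ob: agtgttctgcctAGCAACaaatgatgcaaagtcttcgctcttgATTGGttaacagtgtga
H2-Eb2: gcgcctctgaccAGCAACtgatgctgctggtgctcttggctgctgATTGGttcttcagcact

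The boxes are 25 to 28 bases apart in these 5 promoters. The genes that carry them had ratios between the Cd79a and the Cd3e barcodes from 16.8 for H2-Oa to 2071 for H2-Eb1. Without the pair were H2-Aa and H2-DMb2, with ratios of 3216 and 848, and also H2-DMa, Rfx5 and Ctss, with ratios of 8.72, 3.45 and 3.10. The ratios of genes with and without the pair thus overlap. A match of letters is a description and not a measured binding site.

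The heavy chain genes separated in the Cd3e barcodes. Ighm, which encodes the constant region of IgM, gave 379 UMIs in 79 of the 88 Cd79a barcodes, or 10.8 per 10000 (9.77 to 12.0). The Cd3e barcodes held 860 Ighm UMIs, or 1.29 per 10000 (1.21 to 1.38), so that the ratio was 8.36 (7.39 to 9.45). These 860 UMIs were 47.6% of all Ighm UMIs in the library, the Cd79a barcodes holding 21.0%. Ighd, the constant region of IgD, behaved otherwise, with 174 UMIs in the Cd79a and 24 in the Cd3e barcodes and a ratio of 138 (89.5 to 221).

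Ighm was found in 466 of the 1203 Cd3e barcodes (38.7%), 267 of them with 1 UMI and at most 18. In the Lyz2 barcodes it was found in 6 of 22 (27.3%, 10.7% to 50.2%), with 14 UMIs. Thinned to 2500 UMIs, 250 of 1037 Cd3e barcodes (24.1%, 21.5% to 26.8%) and 2 of 18 Lyz2 barcodes (11.1%, 1.38% to 34.7%) kept it, and the interval of the Lyz2 share includes that of the Cd3e barcodes. The pooled level of Ighm was 1.29 per 10000 in the Cd3e barcodes, 1.27 in the Lyz2 barcodes and 1.26 in free RNA, and these 3 levels did not differ beyond their intervals.

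In the Cd3e barcodes few UMIs of Ighd and of heavy chain variable genes were counted beside those of Ighm. The ratio of Ighd to Ighm UMIs was 0.459 (0.381 to 0.551) in the Cd79a barcodes, 0.0857 (0.0381 to 0.169) in free RNA and 0.0279 (0.0178 to 0.0418) in the Cd3e barcodes. Heavy chain variable genes (Ighv, 183 genes summed) gave 2.20 UMIs per Ighm UMI (1.95 to 2.49) in the Cd79a barcodes, 0.238 (0.147 to 0.371) in free RNA and 0.00581 (0.00188 to 0.0136) in the Cd3e barcodes, where 5 Ighv UMIs were counted beside the 860 of Ighm. For Ighv the 3 intervals did not overlap. For Ighd those of free RNA and the Cd3e barcodes overlapped narrowly, from 0.0381 to 0.0418, which does not show that the 2 ratios are equal. Levels of B cell markers in these barcodes were 0.298 per 10000, against 104 in the Cd79a barcodes.

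Within the Cd3e barcodes, Ighm was at a like level in CD8 and CD4 cells. It gave 1.22 per 10000 in the 629 barcodes with Cd8a or Cd8b1 and no Cd4, and 1.38 in the 311 with Cd4 and no Cd8 gene, a ratio of 0.887 (0.747 to 1.06). Among the Cd4 barcodes, 14 held Foxp3, the factor that defines regulatory T cells, and in these Ighm reached 4.33 per 10000 (33 UMIs in 10 of 14 barcodes, up to 10 UMIs in 1) against 1.20 in the other 297. The ratio was 3.62 (2.40 to 5.30), in a split chosen after values had been seen. Of the genes tested in that split 7.48% were at least 2 times higher with Foxp3, and Ighm was the only member with enough UMIs to be tested. Among CD8 barcodes, those with Gzma or Gzmb, the granzymes of killer cells, held Ighm at 0.545 per 10000 against 1.30 in those without, a ratio of 0.420 (0.264 to 0.638).

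In single Cd79a barcodes, the heavy chain genes were mostly found together. Both Ighm and Ighd were counted in 66 of the 88, Ighm alone in 13, Ighd alone in 6 and neither in 3. More Ighm than Ighd UMIs were counted in 57 barcodes, fewer in 21 and equal numbers in 10. The levels of the 2 genes had an r of 0.124 over the 88 barcodes. Constant genes of switched antibodies (Ighg1, Ighg2b, Ighg2c, Ighg3, Igha and Ighe) gave 16 UMIs in 2 barcodes. Of these barcodes 1 held 9 UMIs of Ighg2b, 3 of Ighg2c and 3 of Igha with none of Ighm or Ighd, and its class II level was 356 per 10000. Jchain, which joins secreted IgM and IgA, had no UMI in the Cd79a barcodes.

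Igkc, the kappa constant gene, gave 330 UMIs in 73 of the 88 Cd79a barcodes, or 9.43 per 10000 (8.44 to 10.5). In the Cd3e barcodes 69 UMIs were counted, or 0.104 per 10000, and the ratio was 90.8 (69.8 to 119). These 69 UMIs were not spread evenly, since 28 barcodes held all of them and 1 barcode held 18 and another 10. Of the 28, 26 carried a CD8 gene, 17 a granzyme gene, 25 a TCR clonotype and 2 a Cd74 UMI. Light chain variable genes (Igkv) gave 1 UMI in them.

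Among the Cd3e barcodes, Igkc lay almost wholly in those with a CD8 gene. The CD8 barcodes held 67 Igkc UMIs and the Cd4 barcodes 1, a ratio of 20.2 with an interval of 3.51 to 812. At least 4 times higher in CD8 were 1.37% of all genes tested, Igkc among them, but with 1 UMI in the Cd4 barcodes it was tested only through the CD8 barcodes, which fixed its place. Within the CD8 barcodes, 34 UMIs fell in the 67 with a granzyme and 33 in the 562 without. In 1 barcode lay 10 of the 34, and in another 18 of the 33. That gave 0.806 and 0.0848 per 10000 and a ratio of 9.50 (5.71 to 15.8). Igkc was 1 of 3 members tested in that comparison, in which 1.56% of genes passed. Median depths were 5567 UMIs with and 6448 without a granzyme.

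The lambda constant genes are close copies, which bears on how reads were shared between them. Iglc2 and Iglc3 are 96.3% identical over 300 bases of their GENCODE vM39 transcripts, with 11 bases that differ. Iglc1 differs from Iglc2 in 28 of the 120 bases printed below. Laid side by side over 300 bases without gaps, Iglc1 and Iglc2 match at 56.3%. That value may understate their identity, since insertions and deletions were not allowed for. No stretch of 90 bases is shared between Iglc2 and Iglc3, while 43 of the 409 stretches of 50 bases in Iglc2 are. Of the 405 stretches of 50 bases in Iglc1, 0 are shared with Iglc2 or with Iglc3. How the counting treated reads that do not reach a difference was not checked, so the separate counts of Iglc2 and Iglc3 are less certain than their sum. The start of each gene's constant region is printed 5′ to 3′ over 120 bases, with capitals where Iglc2 and Iglc3 differ from each other and, in Iglc1, where it differs from Iglc2.
Iglc2: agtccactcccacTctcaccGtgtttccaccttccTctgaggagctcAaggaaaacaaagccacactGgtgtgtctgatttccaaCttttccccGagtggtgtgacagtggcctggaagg
Iglc3: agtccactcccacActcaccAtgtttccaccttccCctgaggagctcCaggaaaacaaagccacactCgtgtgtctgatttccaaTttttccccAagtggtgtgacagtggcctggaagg
Iglc1: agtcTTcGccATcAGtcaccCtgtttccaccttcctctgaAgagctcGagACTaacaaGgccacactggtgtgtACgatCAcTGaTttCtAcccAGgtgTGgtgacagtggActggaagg

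Iglc2 and Iglc3 had the fewest UMIs of the 10 members in the Cd3e barcodes. Iglc2 gave 308 UMIs in 63 of the 88 Cd79a barcodes and 1 UMI in the Cd3e barcodes, a ratio of 5846 with an interval from 1041. Iglc3 gave 233 UMIs in 62 Cd79a barcodes and 2 in the Cd3e barcodes, a ratio of 2211 with an interval from 605. Iglc1, which is no member, gave 95 and 0 UMIs. The levels of Iglc2 and Iglc3 in single Cd79a barcodes had an r of 0.515.

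The constant genes did not sort the Cd79a barcodes into kappa and lambda cells. Igkc and at least 1 of Iglc1, Iglc2 and Iglc3 were found together in 67 of the 88 barcodes. A barcode was called when it had at least 5 UMIs of these genes and at least 90% of them of 1 class. Of 64 barcodes with enough UMIs, 8 were called lambda and 1 kappa, and 55 were mixed. The lambda share of the 9 called barcodes was 88.9% (51.8% to 99.7%).

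The variable genes of the same barcodes gave a different picture, in a call added after these values had been seen. Igkv genes gave 2660 UMIs and Iglv genes 506 in the 88 barcodes. By the same rule 71 barcodes had enough UMIs, of which 62 were dominated by Igkv, 5 by Iglv and 4 were mixed, for an Iglv share of 7.46% (2.47% to 16.6%) of 67. In the 62 Igkv-dominated barcodes the lambda constant genes were still counted, with 275 UMIs of Iglc2, 208 of Iglc3 and 73 of Iglc1 beside 304 of Igkc. In the 5 Iglv-dominated barcodes there were 15, 10, 17 and 6. The pooled level of Iglc2 was thus 10.5 per 10000 in the Igkv-dominated barcodes (9.29 to 11.8) and 4.42 in the Iglv-dominated ones (2.47 to 7.28), a ratio of Iglv- to Igkv-dominated of 0.421 (0.232 to 0.706). Of the 15 Iglc2 UMIs 10 lay in 1 barcode, and without it the ratio was 0.166 (0.0536 to 0.393). For Iglc3 the ratio was 0.371 (0.175 to 0.696), and for Iglc1 it was 1.80 (0.993 to 3.08), with an interval that includes 1. Of the 17 Iglc1 UMIs in the Iglv-dominated barcodes, 11 lay in 1 barcode, so the direction of that ratio rests on it. Igkc itself was lower in the Iglv-dominated barcodes, at a ratio of 0.152 (0.0554 to 0.335).

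**Figure D2:**
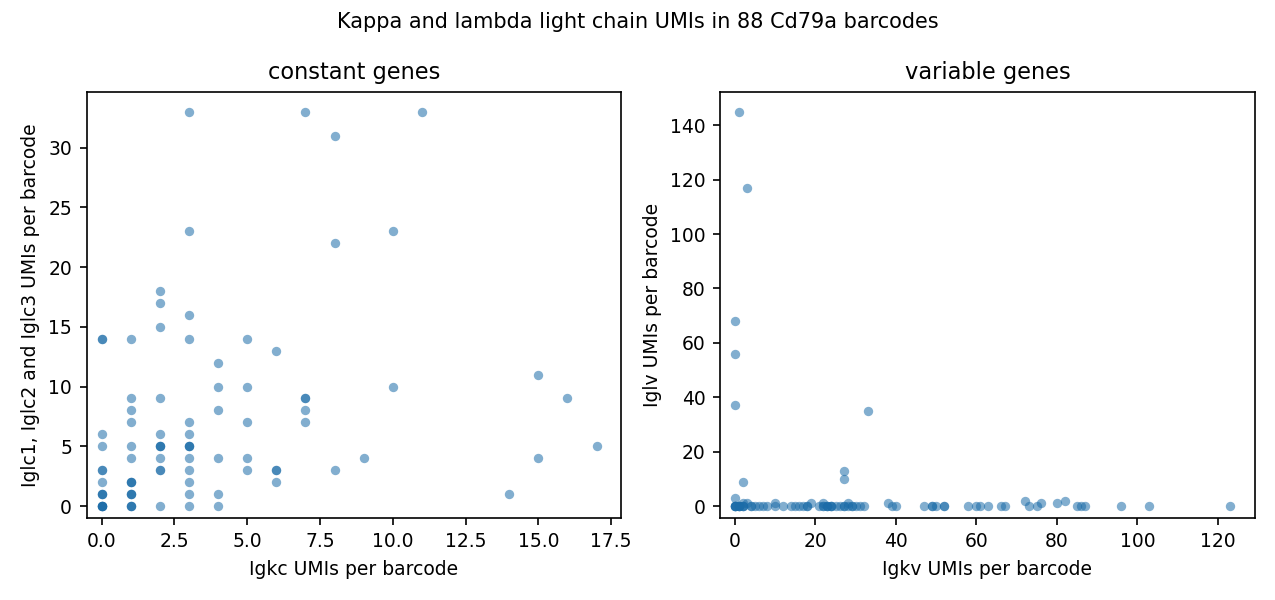
UMIs of lambda against kappa genes in each of the 88 Cd79a barcodes, for constant genes on the left and variable genes on the right, 1 point a barcode. Constant gene points fill the plane, while variable gene points lie mostly along the axes. Both classes were found in 67 barcodes for constant and in 17 for variable genes. Of the barcodes with enough UMIs for a call, 55 of 64 were mixed by constant and 4 of 71 by variable genes.

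Cd74, H2-Aa, H2-Ab1 and H2-Eb1 stood far below free RNA in the Cd3e barcodes, by factors whose intervals overlapped. The Cd3e level was 0.0250 (0.0191 to 0.0324) of the free RNA level for Cd74, 0.0147 (0.00646 to 0.0293) for H2-Aa, 0.0231 (0.00871 to 0.0524) for H2-Ab1 and 0.0263 (0.0113 to 0.0546) for H2-Eb1. The sum over all 5 class II members, Ciita included, stood at 0.0244 (0.0194 to 0.0303), which is 41.0 times lower. Of the 10570 genes tested 0.823% were at least 4 times lower in the Cd3e barcodes than in free RNA. Among them were Cd74 and Igkc, the latter with a ratio of 0.234 (0.155 to 0.359), and the 3 H2 genes, which were tested only through their UMIs in free RNA, so that the filter fixed their place. Iglc2 and Iglc3 had too few UMIs for that count, at 1 against 16 and 2 against 12.

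Ighm and Ighd did not share this factor. The ratio of the Cd3e barcodes to free RNA was 1.03 (0.839 to 1.27) for Ighm and 0.335 (0.150 to 0.818) for Ighd, and neither interval overlapped that of Cd74. For variable genes the ratio was 0.0251 (0.00750 to 0.0668) for Ighv and 0.0120 (0.00557 to 0.0229) for Igkv, with intervals that overlap that of Cd74. In free RNA, Cd74 gave 351 UMIs in 319 of 20532 barcodes, 290 of them with 1 UMI. T cell markers stood at 19.9 per 10000 in free RNA and 32.1 in the Cd3e barcodes.

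**Figure D3:**
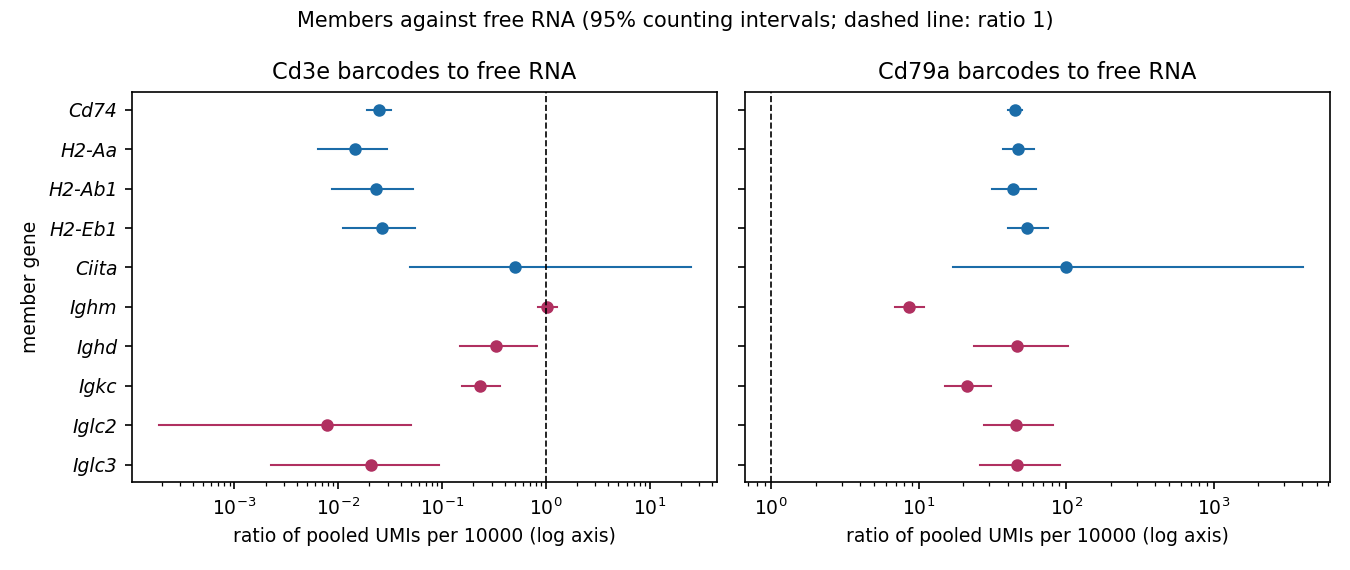
Ratio of the pooled level in the Cd3e (left) and Cd79a (right) barcodes to that in free RNA for each member, on log axes with 95% counting intervals; blue marks class II and red immunoglobulin members. On the left Cd74 and the 3 H2 genes lie between 0.0147 and 0.0263 and Ighm at 1.03. On the right most members lie between 43.7 and 54.4, with Ciita at 100, Igkc at 21.2 and Ighm at 8.60.

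In the Cd79a barcodes the members stood above free RNA, most of them by factors whose intervals overlapped that of Cd74. The factor was 45.2 (40.6 to 50.5) for Cd74, 47.2 for H2-Aa, 43.7 for H2-Ab1 and 54.4 for H2-Eb1. Ighd, Iglc2 and Iglc3 had ratios of 46.1 (23.7 to 102), 45.9 (27.8 to 81.2) and 46.2 (26.0 to 90.8). These rest on 9, 16 and 12 UMIs in free RNA, so that their closeness is within wide intervals. Ciita, with 1 UMI there, had a ratio of 100 (17.0 to 4044). Igkc, at 21.2 (15.1 to 30.7), and Ighm, at 8.60 (6.91 to 10.8), lay below the interval of Cd74.

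The Lyz2 barcodes held class II RNA in a few barcodes. Pooled, Cd74 gave 18.0 per 10000 (15.5 to 20.6), H2-Aa 2.36, H2-Ab1 1.18, H2-Eb1 1.09 and Ciita 0.272, and their sum was 153 times (121 to 196) that of the Cd3e barcodes. At least 4 times higher than in the Cd3e barcodes were 6.61% of all genes tested, among them Cd74 and the 3 H2 genes, of which the H2 genes were tested only through the Lyz2 barcodes and had their place fixed by the filter. Of the 252 class II UMIs, however, 239 (94.8%) lay in 2 of the 22 barcodes. These held 91 and 95 UMIs of Cd74, 10 and 16 of H2-Aa, 7 and 5 of H2-Ab1 and 5 and 7 of H2-Eb1, and all 3 Ciita UMIs of the group were in the former.

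The other 20 Lyz2 barcodes held 13 class II UMIs in 88601, or 1.47 per 10000, and at most 5 in 1 barcode. Without the 2, a comparison chosen after their values were seen, the ratio to the Cd3e barcodes was 9.85 (5.06 to 17.6). Both barcodes carried UMIs of Csf1r (4 and 4), Ccr2 (7 and 5), Cd209a (7 and 6) and Flt3 (1 and 1) and none of S100a8 or S100a9. Of 7 conventional dendritic cell markers, 5 had UMIs somewhere in the Lyz2 barcodes, while Xcr1 and Zbtb46 had none. Itgax, also on that list, had no UMI in either of the 2 barcodes. Their cell type was not tested. The 13 barcodes with S100a8 or S100a9 held 1 class II UMI in 45134, of H2-Ab1. All 198 Cd74 UMIs of the group were in 6 barcodes with Csf1r and without S100a8 or S100a9, 186 of them in the 2 barcodes and 12 in the other 4. A further 6 barcodes with Csf1r also held S100a8 or S100a9 and had no Cd74, and neither had the 10 without Csf1r.

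Of the immunoglobulin members, Ighm was the only 1 found in the Lyz2 barcodes. Ighd, Igkc, Iglc2 and Iglc3 had 0 UMIs in 110276, which allows up to 0.272 per 10000 each. That limit lies above the level of each of these genes in the Cd3e barcodes, so a difference between the 2 groups was not detectable at this depth. The summed immunoglobulin level was 0.882 (0.480 to 1.49) times that of the Cd3e barcodes. Of the 14 Ighm UMIs, 10 were in the 2 barcodes of highest class II level.

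**Figure D4:**
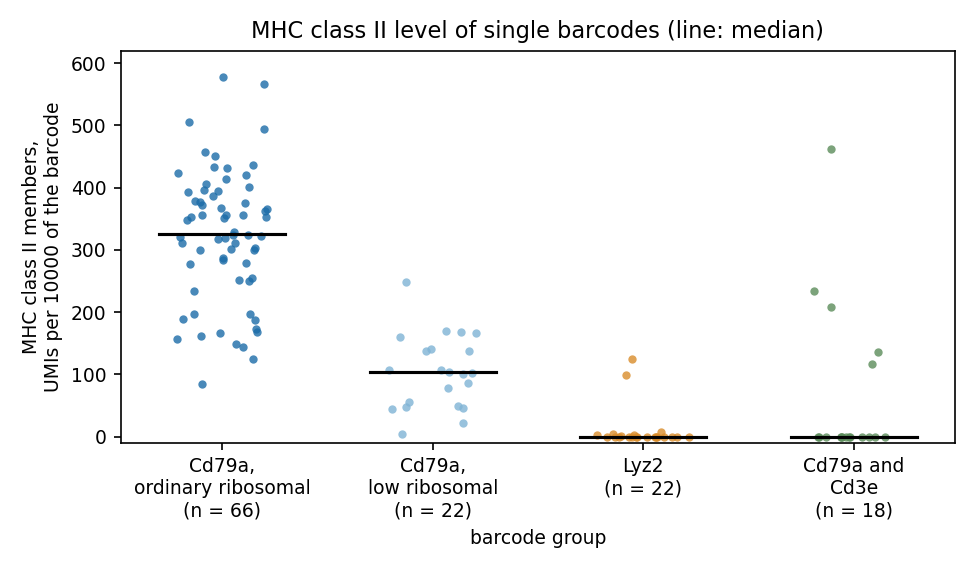
Summed class II level (UMIs per 10000 of the barcode) of each single barcode in 4 sets, with a line at the median; the Cd79a barcodes are split at 10% ribosomal protein UMIs. Medians were 326 for the 66 ordinary and 103 for the 22 low ribosomal Cd79a barcodes, and 2 of 22 Lyz2 and 5 of 18 barcodes with both genes stand above the rest of their set.

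A part of the Cd79a barcodes held little ribosomal protein RNA. In 22 of the 88, ribosomal protein genes made up under 10% of the UMIs, and so they did in 339 of the 1203 Cd3e and 14 of the 22 Lyz2 barcodes. These 22 had a median depth of 2411 UMIs, against 4058 for the other 66. Their summed class II level was 97.0 per 10000, against 319, a ratio of 0.304 (0.279 to 0.332). The median ratio over all tested genes was 1.27.

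The members differed from each other in these low ribosomal barcodes. By at least 2 times, a fold set after values had been seen, 6 of the 10 were lower (Cd74, H2-Aa, H2-Eb1, Igkc, Iglc2 and Iglc3), and 24.1% of the 3210 genes tested were. Cd74 had a ratio of 0.265 (0.236 to 0.296), Iglc2 one of 0.210 (0.107 to 0.372) and Igkc one of 0.352 (0.215 to 0.547). Just outside that fold was H2-Ab1, at 0.514 (0.390 to 0.667). Ighm, at 0.993 (0.742 to 1.31), and Ciita, at 1.62 (0.709 to 3.37), did not differ from 1 beyond their intervals. Ighd was above 1, at 1.75 (1.21 to 2.48). The intervals of Ighm, Ciita and Ighd each include 1.27, the median ratio over all tested genes. The ratio of Ighd to Ighm was accordingly 0.721 (0.478 to 1.08) in the low and 0.409 (0.331 to 0.503) in the ordinary ribosomal barcodes. These intervals overlap narrowly, which does not show that the ratios are equal. In the low ribosomal Cd3e barcodes Ighm had a ratio of 0.437 (0.336 to 0.559), and Cd74, from 16 and 54 UMIs, had one of 1.48 (0.793 to 2.63).

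**Figure D5:**
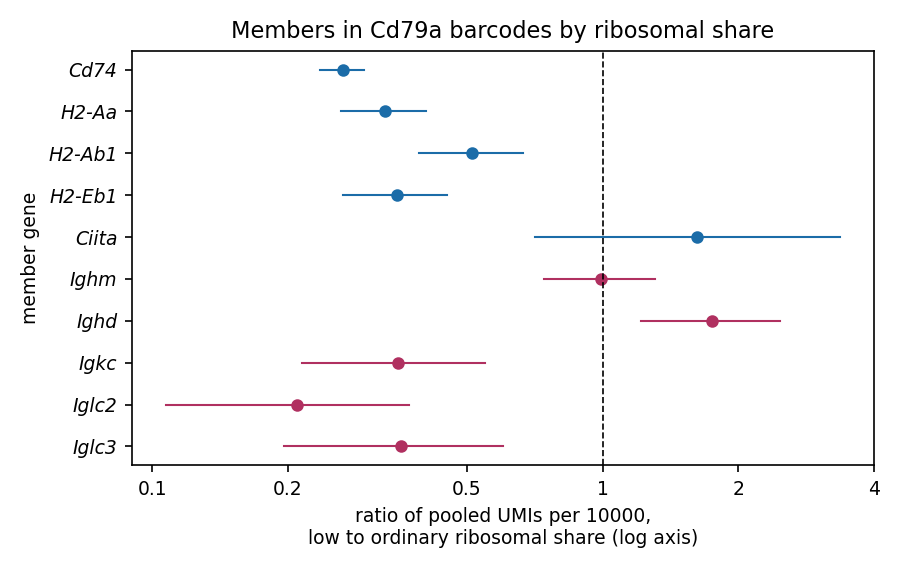
Ratio of the pooled level in the 22 low to that in the 66 ordinary ribosomal Cd79a barcodes for each member (log axis), with 95% counting intervals; blue marks class II and red immunoglobulin members. Cd74, the H2 genes and the light chain genes lie below 1, at 0.210 to 0.514, while Ighm lies at 0.993 and Ighd at 1.75.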

How the data were processed

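Gene expression and TCR libraries of 1 vehicle-treated mouse were analysed. The authors processed the reads with Cell Ranger 4 against GRCm38 (labels and file header) and deposited unfiltered, unnormalized UMI counts for every gene and barcode. Their TCR contig table was used for clonotypes only. All else was computed here with Python 3.11.15, NumPy 2.4.6, SciPy 1.17.1 and pandas 2.3.3. Counts were pooled over barcodes and given per 10000. Intervals at 95% are exact Poisson (levels), Clopper-Pearson (shares) or conditional binomial (ratios). A group at 0 is set to 3 UMIs. Doublets were predicted with Scrublet in Scanpy 1.11.5 and kept (10 of 1600, 0.625%). Ribosomal protein genes are 86. The procedures were tested on simulated data. Called barcodes had 1334 to 18399 UMIs, a limit carried over from an earlier analysis of this library.

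Members and lists were chosen with earlier results of these data known. Named genes are the 10 members, the class II and immunoglobulin lists, the 5 other genes with the highest Cd79a to Cd3e ratio and the 5 most correlated with the class II sum. A gene named by this rule is not reported here. Alternatives were other limits, groups and units, Scrublet removal and subtraction of free RNA. The annotation version is not given in the sources used here.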

Additional observations from a re-analysis of the deposited data

Results flagged for a closer look

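Barcodes with both Cd79a and Cd3e were in no comparison, and Cd74 was seen in them above its level in free RNA. The 18 barcodes held 301 Cd74 UMIs, or 31.7 per 10000 against 4.21 in free RNA, and all of them lay in 5 barcodes, with 95, 23, 129, 31 and 23 UMIs. These 5 also held every H2-Aa, H2-Ab1 and H2-Eb1 UMI of the set and 1 or 2 UMIs of Cd3e each, and 2 of them carried a TCR clonotype. The other 13 had 0 class II UMIs.

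Called barcodes of none of the groups held 119 Cd74 UMIs, and 3 of the 270 had at least 5 class II UMIs. The first held 93 Cd74, 28 H2-Aa, 12 H2-Ab1 and 11 H2-Eb1 UMIs, with 32 UMIs of Siglech and 11 of Ccr9, genes of plasmacytoid dendritic cells, and 5 of Ighm. The others held 10 and 4 Cd74 UMIs, in barcodes with 1.97% and 1.16% ribosomal protein UMIs. The barcode with 10 Cd74 UMIs also held 1 UMI of Ighm, 1 of Iglc2 and 3 of Igkv genes. That with 4 Cd74 UMIs held 3 UMIs of Ighm and 4 of Ighd. All 10 B cell markers were found among the 270 barcodes, with 102 UMIs in 13 of them. Their summed level reached 233 per 10000 in a single barcode. Whether the barcodes with 10 and 4 Cd74 UMIs came from B cells was not tested. The remaining 267 held 12 Cd74 UMIs together.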

How the results depend on the processing

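Of 70 values computed under 15 other settings, 64 stayed within the interval of the reported value or within 1.5 times of a count, and 6 moved. The class II ratio of the Lyz2 to the Cd3e barcodes was 285 without low ribosomal barcodes and 67.6 as a mean over barcodes, beside 153 as reported, and 9.85 without the 2 Lyz2 barcodes of highest class II level. The immunoglobulin ratio of these groups was 0.314 (0.0853 to 0.806) without the 2, beside 0.882 (0.480 to 1.49) as reported. Without low ribosomal barcodes it was 1.34 (0.708 to 2.30), on the other side of 1. The intervals of 0.882 and 1.34 include 1, and that of 0.314 does not. The lambda share turned from 88.9% of 9 barcodes, mostly lambda, to 7.46%, mostly kappa, when called from variable genes. The Iglc2 ratio of Iglv- to Igkv-dominated barcodes was 0.166 without 1 barcode, beside 0.421. The calls from variable genes and the values without the 2 Lyz2 barcodes or the 1 Iglv-dominated barcode were chosen after seeing the data. The cause of these moves was not tested. With free RNA taken off at 5%, the class II ratio of the Cd79a to the Cd3e barcodes has no value, because more was taken off than the Cd3e barcodes held. With 100 UMIs a gene, 9 members were tested and all 9 were at least 4 times higher. No paired analysis was possible because there is 1 sample. With 110276 UMIs in the Lyz2 barcodes, a count of 0 allows up to 0.272 per 10000.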
